A study of Mus musculus with 2 samples.

Results

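Chemokines and their receptors were read in ovaries of newborn mice in which hedgehog signalling had been switched on in somatic cells. Members were all probe sets with a single gene symbol made of Ccl, Cxcl, Ccr, Cxcr or Ackr and a number, or with the symbol Cx3cl1, Cx3cr1, Xcl1 or Xcr1. There were 84 such probe sets for 52 genes, out of 45101 probe sets on the array, of which 34945 carried a single mouse gene symbol. Of the 52 genes, 32 are named as ligands and 20 as receptors. Cxcl11, counted with the ligands, is not listed as protein coding in the RefSeq gene table used. Ccl19, Ccl26 and Cxcr1 are among the genes that match the naming pattern but had no probe set with a single symbol in the annotation used here.

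The control group was Amhr2(+/+)-SmoM2 and the mutant group Amhr2(cre/+)-SmoM2, both at 2 days of age. SmoM2 encodes Smoothened, which relays hedgehog signals into the cell, in a permanently active form, and both groups carried the allele. Cre from the Amhr2 locus, which is active in gonadal somatic cells, was present only in the mutant, so Cre and the altered Amhr2 copy cannot be told apart from SmoM2 activation. RNA from the ovaries of 8 mice was pooled per group and hybridised to 1 array, so each value below is 1 measurement per group with no replicate error and no p-value.

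Chemokines are small secreted or membrane-bound proteins that steer moving cells along a gradient. They are named after the spacing of their first conserved cysteines (CC, CXC, CX3C and XC) and act through receptors coupled to Gi proteins. Atypical receptors of the Ackr group bind chemokines without this G-protein signal, and several remove ligand from the tissue. In the embryo, Cxcl12 and its receptor Cxcr4 guide primordial germ cells to the gonad, while many other members direct leukocytes.

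Values are probe-set signals on the linear scale on which they were deposited, and signals of different probe sets are not set against each other. The summed signal of a marker list adds its measured genes, so the brightest probe sets weigh most in it. A probe set was called measured when at least 1 of its signals was 80.7 or more, 80.7 being the median signal over both arrays. For scale, 24 Bacillus control probe sets, with no target in mouse RNA, ranged up to 26.9, with 4.85 as their median. The log2 ratio is mutant over control after adding 22.2 to both signals, and understates differences of dim genes. Folds are plain signal ratios, and where 1 signal lay under 80.7 the fold is the brighter signal over 80.7, written as "at least". Calls and counts at 2-fold and 1.5-fold were made on the log2 ratio with 22.2 added, not on the plain folds, so a call can stand beside a bound under its threshold and a dim gene can pass a plain fold without a call.

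Markers of the labelled tissue were measured in both pools. Foxl2, a transcription factor of granulosa cells, had signals of 8097 in control RNA and 4182 in mutant RNA, and the germ cell gene Ddx4 had 3322 and 1944. The hedgehog target Ptch1 was 5574 in control RNA and 15949 in mutant RNA. Signals reached 80.7 for 50.3% of probe sets on the control and 49.8% on the mutant array. Over all 20576 measured probe sets with 1 symbol the median log2 ratio was -0.04, whereas 18 spiked hybridization control probe sets had a median of 0.23, with 17 of them brighter on the mutant array. The signal ratio of the 3' to the 5' beta-actin probe set, a measure that depends on RNA quality and labelling, was 8.48 for control and 10.5 for mutant RNA. The part of these technical differences in the results below was not tested.

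Most chemokine genes were dim in both pools. Of the 84 member probe sets 23 (27.4%) were measured, for 18 of the 52 genes, against 58.9% of all probe sets with 1 symbol. Both signals reached the minimum for 15 of the 23, and for the other 8 only 1 array did. A probe set of the latter kind passed because of its brighter array, so a difference was built into its selection. Among all 20576 measured probe sets with 1 symbol, 2176 were of this kind, a smaller part than among the members. The shares of all measured probe sets given below are not matched to the members for this or for signal. The size of any excess over them is therefore not established. Of the 23 measured probe sets, 5 were called 2-fold higher in the mutant pool, where 2.89% of all measured probe sets were, and 0 were called 2-fold lower, where 2.04% of all were. The 5 belonged to 4 genes, Cxcr4, Ackr4, Ccl11 and Ccr10, and the bounds on the plain folds of Ccl11 (1.86) and Ccr10 (1.10) lay under 2. Among the 15 with both signals at the minimum, 3 were 2-fold higher (background 1.77%) and 0 were 2-fold lower (background 1.14%), and these 3 were the probe set of Cxcr4 and a pair for Ackr4.

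**Figure D1:**
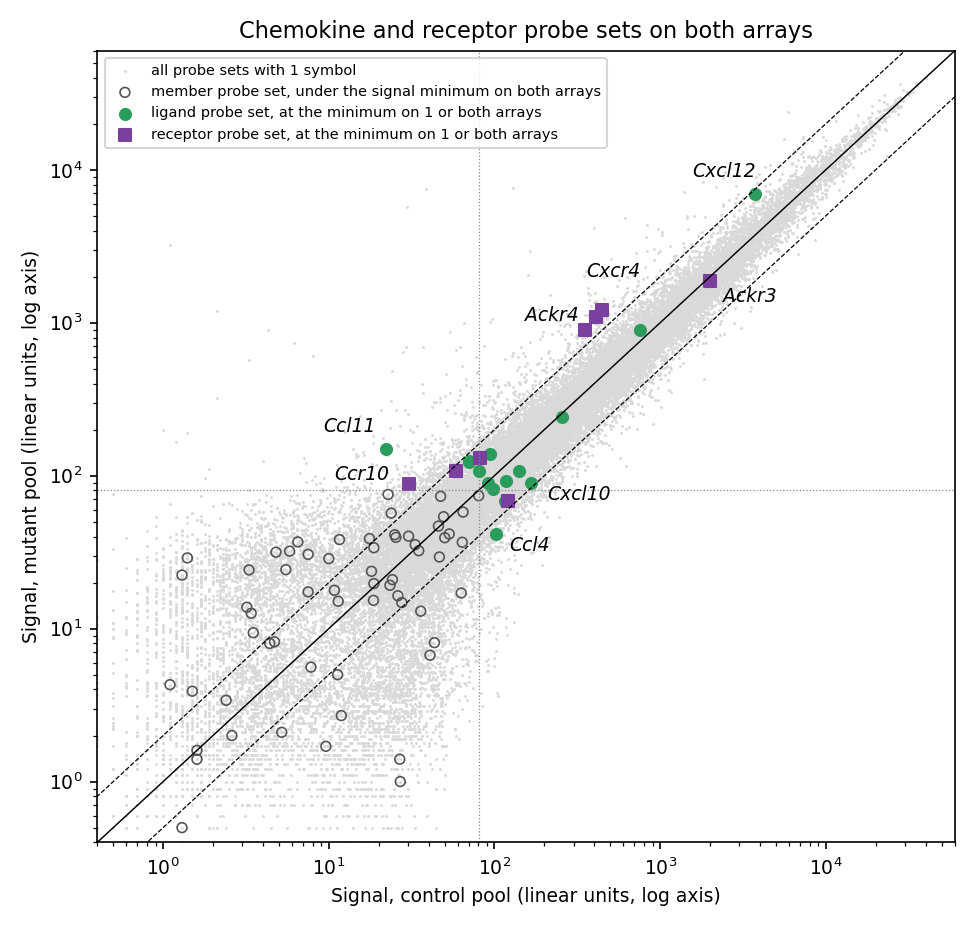
Signal in the mutant pool against signal in the control pool, both on log axes, for all probe sets with 1 symbol (grey), dim member probe sets (open circles), ligands (green circles) and receptors (purple squares). The solid line is equality, dashed lines mark 2-fold on the plain signals, and dotted lines the signal minimum of 80.7. Cxcr4 and the pair of Ackr4 probe sets lie above the upper dashed line with both signals above the minimum.

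Receptor and ligand probe sets were summarised side by side, with no test of a difference between them. The 8 measured receptor probe sets had a median log2 ratio of 0.88, with 6 above 0, and the 15 measured ligand probe sets had a median of -0.02, with 7 above 0. The probe sets of 1 gene are not independent, and 2 of the 8 belong to Ackr4. The receptor median lay between Ackr2 (0.68) and Ccr10 (1.07), which both reached the minimum on the mutant array only, so their selection favoured a high ratio. Restricted to probe sets with both signals at the minimum, the medians were 1.29 over 5 receptor and -0.04 over 10 ligand probe sets. Of those 5 receptor probe sets, 3 were the ones of Cxcr4 and Ackr4. The median over all 23 was 0.32, beside -0.04 for all measured probe sets. At the lower threshold of 1.5-fold, 9 of the 23 were higher (background 8.81%) and 4 were lower (background 9.87%). These backgrounds, too, are not matched to the members for signal or for probe sets measured on 1 array only. With both signals at the minimum, 4 of 15 were 1.5-fold higher (background 6.69%), 1 was 1.5-fold lower (background 7.66%) and 10 lay between. One of the 10 was Ccr1, whose plain fold was 1.60.

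**Figure D2:**
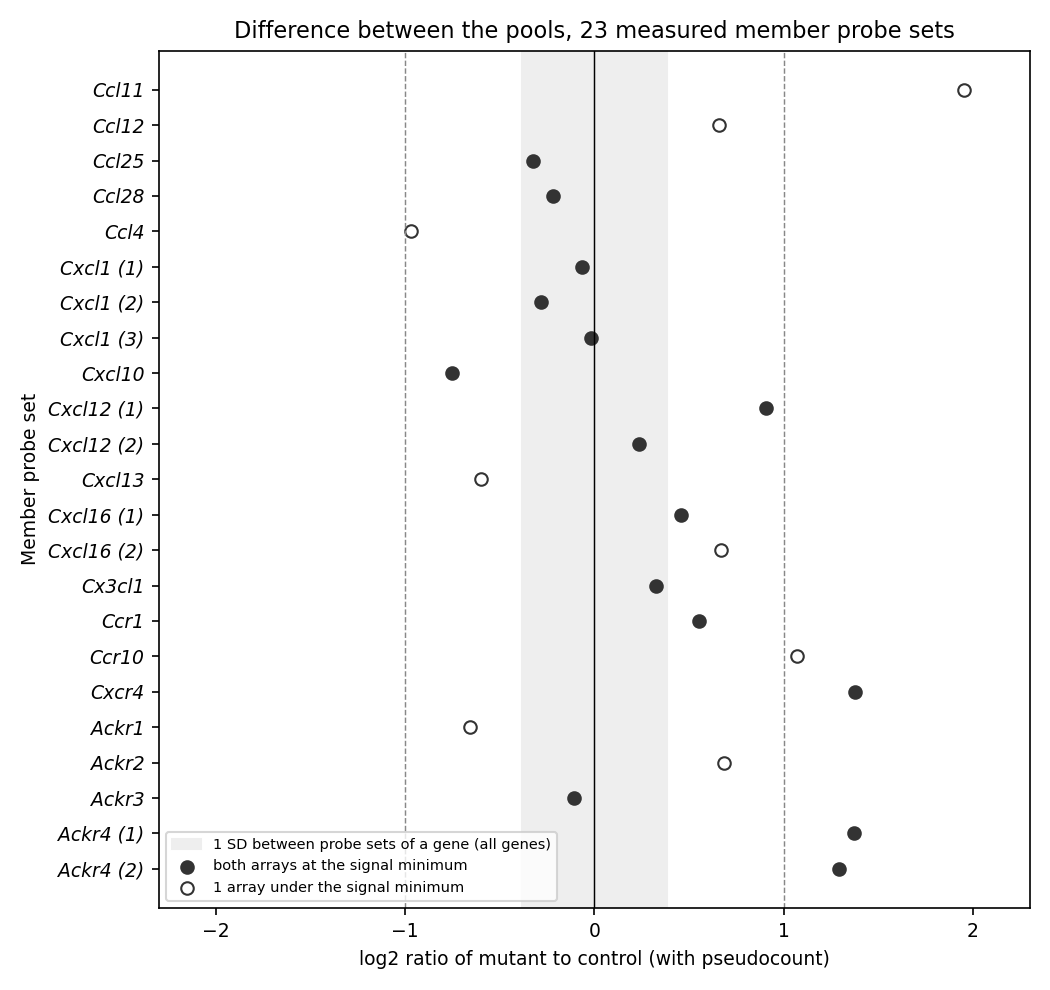
Log2 ratio of mutant to control for the 23 measured member probe sets, in the order of ligand and receptor classes, with numbers for several probe sets of a gene. Filled points had both signals at the minimum and open points only 1, the grey band is 1 SD among probe sets sharing a gene (0.38 over all genes), and dashed lines mark 2-fold. That SD was wider, at 0.48, for probe sets with a mean signal up to 173, where most of the points lie. Filled points beyond the upper dashed line belong to Cxcr4 and Ackr4, and no point lies beyond the lower one.

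Cxcr4, the signalling receptor of Cxcl12, was brighter in the mutant pool. Its only probe set read 449 in control RNA and 1202 in mutant RNA, a 2.68-fold difference (log2 ratio 1.38). Of all measured probe sets 1.37% had a ratio as high. Probe sets of the same gene had log2 ratios with an SD of 0.35 where the mean signal lay between 448 and 1317, as it did for Cxcr4. That SD compares probes on the same pair of arrays and is not a replicate error. In pooled tissue, more cells of a type and more RNA per cell cannot be told apart.

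Cxcl12, the ligand of both Cxcr4 and Ackr3, was brighter in the mutant pool to a degree that depended on the probe set. The brightest one read 3713 in control RNA and 6990 in mutant RNA (1.88-fold, log2 ratio 0.91), and 3.60% of all measured probe sets had a ratio as high. A second one read 754 and 890 (1.18-fold, log2 ratio 0.23, but 0.01 with the arrays scaled on the hybridization controls). The third was dim, at 7.5 and 30.6. Both measured probe sets were thus higher in the mutant pool, but only the brighter one exceeded the SD between probe sets at its signal level (0.32), and the other lay inside that at its own (0.35). Ackr3, an atypical receptor that takes up Cxcl12, read 2005 in control RNA and 1862 in mutant RNA (log2 ratio -0.11). Its ratio lay within the spread between probe sets, so of the receptors of Cxcl12 only Cxcr4 passed 2-fold. No test compared the receptors.

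Ackr4, an atypical receptor that removes Ccl19, Ccl21 and Ccl25, was brighter in the mutant pool on both measured probe sets. These read 409.5 and 354 in control RNA and 1095.5 and 900.4 in mutant RNA. The differences were 2.68-fold and 2.54-fold (log2 ratios 1.37 and 1.29), and 1.37% and 1.56% of all measured probe sets had ratios as high. The name of the second ends in _x_at, which marks probes that can match other transcripts. The third Ackr4 probe set was dim, at 4.8 and 31.6. Of its ligands, Ccl25, which attracts thymocytes and gut T cells, read 140 in control RNA and 107 in mutant RNA (log2 ratio -0.33). A second Ccl25 probe set was dim, at 45.9 and 46.8. Ordered by start position in the RefSeq gene table, Ackr4 comes after Acad11 and before Dnajc13, whose log2 ratios were -0.26 and -0.37. Thus the genes next to Ackr4 in that order were not brighter in the mutant pool.

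The promoters of Cxcr4, Cxcl12 and Ackr4, the members brighter in the mutant pool at signals well above the minimum, and of Cxcl10, the member dimmer there by over 1.5-fold with both signals at the minimum, are shown for the letters before their start sites. They are the 250 bases before the start in the RefSeq promoter table (GRCm38.p6), 5' to 3' on the gene's strand. Cxcr4 is at chr1:128592300-128592549 on the minus strand, Cxcl12 at chr6:117168285-117168534 on the plus strand, Ackr4 at chr9:104126644-104126893 and Cxcl10 at chr5:92348890-92349139, both on the minus strand. Capitals mark matches on either strand to the motifs searched, which were GACCACCCA for GLI factors, GAAA, any 2 bases and GAAA for interferon-regulated factors, TTCNNNGAA for STAT factors, the NF-kB motif and TATAAA.
Cxcr4 promoter: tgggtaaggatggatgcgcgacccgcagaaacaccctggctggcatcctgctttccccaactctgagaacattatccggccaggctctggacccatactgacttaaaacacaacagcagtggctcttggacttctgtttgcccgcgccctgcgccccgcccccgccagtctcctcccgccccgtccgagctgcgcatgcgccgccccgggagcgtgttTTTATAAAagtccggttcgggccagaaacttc
Cxcl12 promoter: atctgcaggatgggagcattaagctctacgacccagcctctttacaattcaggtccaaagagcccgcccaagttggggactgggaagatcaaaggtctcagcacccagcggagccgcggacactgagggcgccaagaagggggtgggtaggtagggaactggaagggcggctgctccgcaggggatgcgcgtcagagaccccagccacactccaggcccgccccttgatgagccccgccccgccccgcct
Ackr4 promoter: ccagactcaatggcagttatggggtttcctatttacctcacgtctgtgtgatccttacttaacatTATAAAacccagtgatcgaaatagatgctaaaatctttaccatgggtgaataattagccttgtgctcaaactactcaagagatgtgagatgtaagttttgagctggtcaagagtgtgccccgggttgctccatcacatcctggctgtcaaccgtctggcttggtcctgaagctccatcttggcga
Cxcl10 promoter: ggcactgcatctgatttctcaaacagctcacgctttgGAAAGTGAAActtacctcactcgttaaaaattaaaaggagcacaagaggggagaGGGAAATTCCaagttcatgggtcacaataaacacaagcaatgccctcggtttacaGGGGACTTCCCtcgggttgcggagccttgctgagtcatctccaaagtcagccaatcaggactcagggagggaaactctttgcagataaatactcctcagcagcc

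Of the 52 member genes 39 had a promoter in that table, and with Ccl19 and Cxcr1 the families had 43 windows for 41 genes. In Cxcr4 the capitals are overlapping TATAAA matches on both strands, the first beginning at position -32 from the start site. In Ackr4 the TATAAA match begins at position -185. The Cxcl12 window held no match to any of the motifs searched. In Cxcl10 the first run is the interferon motif, and the other runs are NF-kB matches, of which a pair overlap each other. The GLI letters were found in 0 of the 43 windows, and in 0.225% of all 32851 promoters, so a match was rare throughout. NF-kB matches occurred in 11 of the 43 windows (25.6%) and in 7.25% of all promoters, TATAAA in 13 (30.2%) and in 12.4%, the interferon motif in 3 (6.98%) and in 2.98%, and the STAT motif in 3 (6.98%) and in 7.02%. A match is a description of letters and not of binding.

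The other atypical receptors were dim or near the signal minimum. Ackr1, which binds many inflammatory chemokines on venules and red cells, read 121 in control RNA and 68.7 in mutant RNA, at least 1.504-fold lower. The erythroid markers on the same arrays were lower too, with 4 of 5 listed genes measured, a median log2 ratio of -0.84 and a summed signal of 2718 in control RNA and 1283 in mutant RNA. Alas2, which red cells use to make haem, read 409 and 116, and Slc4a1, the red cell anion exchanger, 1864 and 820. Epb42 read 195 and 129, and Klf1 was nearly level, at 250 and 219 (log2 ratio -0.18). Endothelial markers went the other way, with a median log2 ratio of 0.41 over 6 of 7 listed genes. The part of red cells or of venules in the Ackr1 value was not tested. Ackr2, which degrades inflammatory CC chemokines, read 58.6 in control RNA and 107.5 in mutant RNA (at least 1.33-fold higher), while its other probe sets were dim, at 40.8 and 6.7 and at 17.6 and 38.8. The dim probe sets of Ackr2 pointed in both directions.

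Among the CC receptors only Ccr1 and Ccr10 were measured, out of 9 genes. Ccr1, a receptor of several inflammatory CC chemokines on myeloid cells, read 82.3 in control RNA and 131 in mutant RNA (1.60-fold, log2 ratio 0.55), and its other probe set was at 1.6 in both. Ccr10, the receptor of Ccl27 and Ccl28, read 30.6 and 88.5. Its log2 ratio of 1.07 placed it past 2-fold, although the bound on its fold is only 1.10. Its ligand Ccl28, an epithelial chemokine, read 98.5 in control RNA and 81.4 in mutant RNA on the measured probe set (log2 ratio -0.22), and at most 26.8 on the other pair.

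Ccl11, eotaxin, which attracts eosinophils through Ccr3, was brighter in the mutant pool. Its probe set read 22.2 in control RNA and 149.7 in mutant RNA, at least 1.86-fold higher. The log2 ratio was 1.95, and 0.74 with low signals raised to the minimum, where Cxcr4 had 1.38. Because the control signal lay under the minimum, the size of the difference was not measured beyond that bound. Ccl12, a monocyte attractant that acts on Ccr2, read 69.7 and 122.7 (at least 1.52-fold higher). Ccl11 and Ccl12 are next to each other in the RefSeq gene table, in a run of 6 chemokine genes from Ccl2 to Ccl1. The other 4 genes of the run were dim, and Ccl2 read 11.6 and 38.2, Ccl7 3.3 and 24.2, Ccl8 46.5 and 29.4, and Ccl1 4.7 and 8.2.

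Ccl4, an inflammatory chemokine made by activated leukocytes, was dimmer in the mutant pool. It read 102.5 in control RNA and 41.5 in mutant RNA, at least 1.27-fold lower. The log2 ratio was -0.97, and -0.28 with low signals raised to the minimum. Its neighbour and close relative Ccl3 was dim, at 43.4 and 8.1. The inflammatory ligands Ccl5 and Ccl9 were dim too, and Ccl6 read 80.3 and 73.9 on its brighter probe set, just under the signal minimum. In the run of 5 genes from Ccl5 to Ccl4, Ccl4 alone was measured.

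Cxcl10, an interferon-induced ligand of Cxcr3 that attracts activated T cells, was dimmer in the mutant pool. It read 166 in control RNA and 89.5 in mutant RNA (1.85-fold lower, log2 ratio -0.75), and 5.42% of all measured probe sets had a ratio as low. The related Cxcl9 and Cxcl11 were dim, with no signal above 50.1, and Cxcr3 read 49.3 and 53.9. Irf1, an interferon-induced factor on the list of inflammatory regulators, read 563 and 544 (log2 ratio -0.05). No T cell marker reached the minimum in either pool, out of 6 listed genes with a named probe set. Cxcl13, which attracts B cells, read 115 and 68.4 (at least 1.43-fold lower), and its second probe set 6.5 and 36.9. Of the B cell markers only Ms4a1 was measured, at 159 in control RNA and 73.4 in mutant RNA.

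Cxcl1, a neutrophil attractant, was the member with the most measured probe sets, and none of them passed 1.5-fold. These 3 probe sets read 255.5, 117.2 and 91 in the control and 243.3, 92.6 and 89.4 in the mutant pool. The log2 ratios were -0.06, -0.28 and -0.02, all inside the spread between probe sets, and the last turned to 0.01 after quantile normalization. Its relatives Cxcl2, Cxcl3 and Cxcl5 and the receptor Cxcr2 were dim, with Cxcr2 at 2.6 and 2.0. Cxcl16, a membrane-anchored ligand of Cxcr6, read 94.4 and 138 (1.46-fold higher) and, on the second probe set, 70.5 and 125 (at least 1.55-fold higher). Cx3cl1, the membrane-anchored ligand of Cx3cr1, read 80.8 and 107 (log2 ratio 0.32) on its measured probe set. The other 3 probe sets of Cx3cl1 were dim and pointed in both directions. Cx3cr1, found on monocytes and macrophages, had a brighter probe set at 63.9 in control RNA and 36.7 in mutant RNA.

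**Figure D3:**
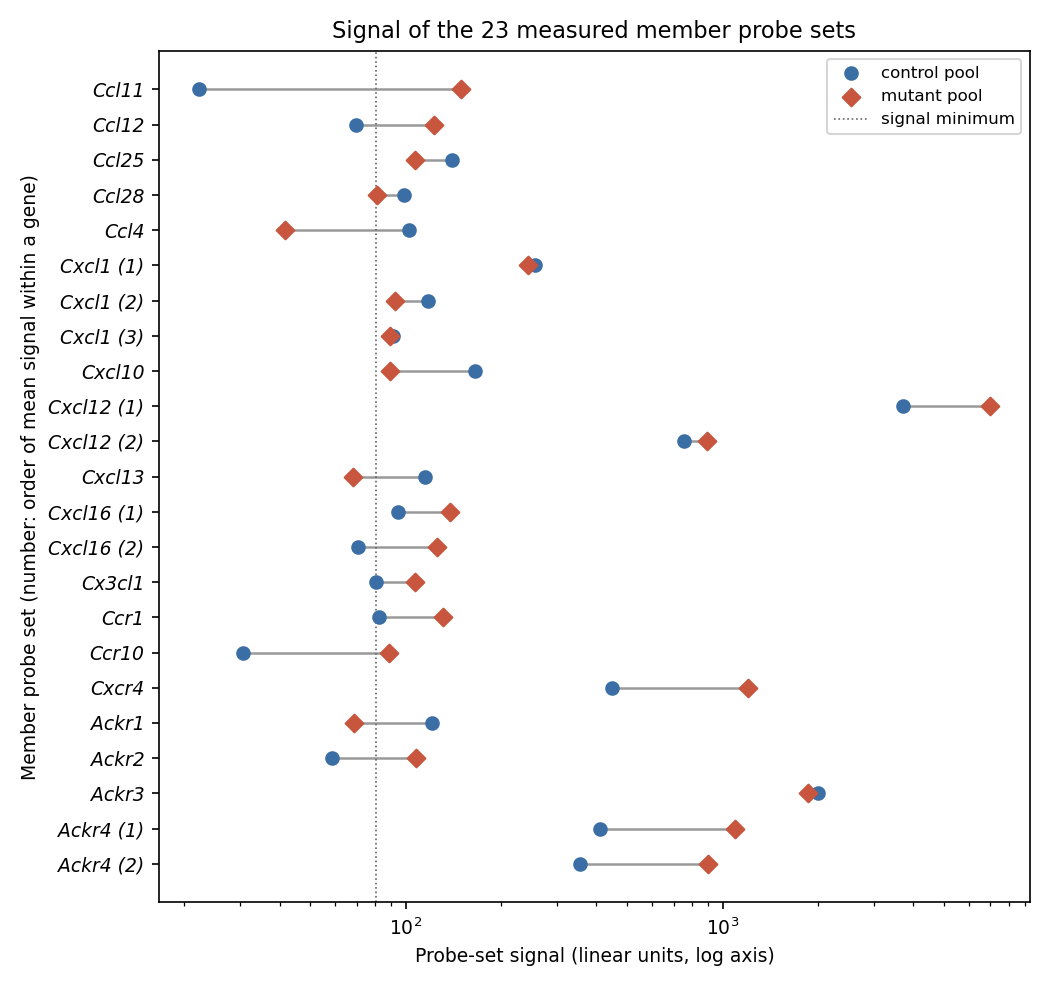
Signal of each measured member probe set in the control pool (blue circles) and the mutant pool (red diamonds), on a log axis, with the signal minimum of 80.7 dotted. The widest gap among probe sets above the minimum on both arrays is that of Cxcr4, at 449 and 1202, whereas Ackr3 and the brightest Cxcl1 probe set have nearly the same signal in both pools.

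The remaining 34 genes were under the minimum on both arrays on all their probe sets. They were 12 CC ligands, 8 CXC ligands, Xcl1, 7 CC receptors, 4 CXC receptors, Cx3cr1 and Xcr1. Counting also the dim probe sets of measured genes, 61 probe sets were dim, with signals from 0.5 to 80.3 and medians of 17.6 in control RNA and 19.7 in mutant RNA. Of the 61, 34 were brighter in the mutant pool, 26 in the control pool and 1 was equal. A dim signal does not show that the transcript was absent. Receptors that define leukocyte classes were among them. Ccr2, found on monocytes, read 22.8 in control RNA and 75.4 in mutant RNA on the brightest of its 4 probe sets. The others read 18.7 and 33.8, 7.5 and 17.4, and 1.3 and 0.5. Ccr7, which guides dendritic and T cells to lymph nodes, read 4.4 and 8.0, and Cxcr5, the receptor of Cxcl13 on B cells, 11.9 and 2.7.

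Ligands and receptors were rarely measured together. Of 17 listed ligand and receptor groups, 3 had at least 1 measured ligand and 1 measured receptor. These were Cxcl12 with Cxcr4 and Ackr3, Ccl4 with Ccr1, and Ccl28 with Ccr10. In the first, Cxcl12 and Cxcr4 were both brighter in the mutant pool. In the other 2 the ligand was dimmer and the receptor brighter in the mutant pool, by signals that lay near the minimum.

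Leukocyte markers were read from lists on the same arrays, since leukocytes carry many of these receptors. For the calls in the marker lists below, 2.89% of all measured probe sets were called 2-fold higher and 2.04% lower. All 5 general leukocyte markers were measured, with a median log2 ratio of 0.63 and a summed signal of 1331 in control RNA and 1945 in mutant RNA. Ptprc, the common leukocyte antigen, read 276 and 494.5. For macrophages and monocytes 10 of 14 genes were measured, with a median of 0.39, 1 gene at 2-fold higher and a summed signal of 5758 and 9218. Csf1r, the receptor of macrophage growth factor, read 3274 and 5611, the largest part of both sums, and the complement gene C1qb 176 and 417. Other genes of the list were nearly level, with C1qc, which encodes another chain of the same complement protein, at 130 and 121, the macrophage receptor Adgre1 at 226 and 225.5, and Cd68, a lysosomal protein of macrophages, at 103 and 109.

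Neutrophil genes stood higher. Signals for 6 of the 9 listed genes reached the minimum, and 5 of the 6 were called 2-fold higher in the mutant pool, with a median log2 ratio of 1.62 and a summed signal of 8003 in control RNA and 20072 in mutant RNA. Mpo, the granule peroxidase, read 23.6 and 307 (at least 3.81-fold higher), and Ngp, a granule protein, 368 and 1553 (4.22-fold). Csf3r, the receptor of granulocyte growth factor, was dim, at 66.4 and 53.9, as was the neutrophil receptor Cxcr2. Of the platelet and megakaryocyte list 2 of 5 genes were measured, and Itga2b, the platelet integrin, read 77.7 and 208. Mast cell and eosinophil markers had a median of -0.20 over 4 of 8 measured genes. Prf1 was the single measured NK cell gene (log2 ratio -0.35), and the dendritic cell list had a median of -0.25 over 3 of 7. The part of leukocyte number in the values of Cxcr4, Ccr1 and the other members was not tested.

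Lists for cells of the ovary itself had ratios in different directions on these arrays. The steroid cell list had the highest median of all marker lists, at 5.39, with 4 of 4 genes called 2-fold higher and a summed signal of 6172 in control RNA and 39942 in mutant RNA. Cyp17a1, an enzyme of androgen synthesis, read 38.8 and 7532 (at least 93.3-fold higher), and Cyp11a1, which starts steroid synthesis from cholesterol, 29.6 and 5700 (at least 70.6-fold). The ovary somatic list had a median of -0.56 (6 of 6 measured, 1 called 2-fold lower) and a summed signal of 22068 and 11894. The one called was Amhr2, which is also the locus that carries Cre, at 8591 and 3485.5. Gata4, at 472.5 and 635, and Nr5a1, at 501.5 and 734, were brighter in the mutant pool, and the others of that list dimmer. Interstitial stroma markers had a median log2 ratio of 0.90 (7 of 7 measured), with Pdgfra, a growth factor receptor of stromal cells, at 7298 and 16038. Their summed signal was 25266 in control RNA and 41517 in mutant RNA. Dcn was nearly level, at 9566 and 9325 (log2 ratio -0.04), while the others of the list were brighter in the mutant pool. Endothelial markers had a median of 0.41 (6 of 7), and Pecam1, which was under the minimum in the control, read 68.8 and 117. Tek was level, at 658 and 656, while the other measured genes of the list were brighter in the mutant pool. The lymphatic endothelium list had a median of 0.13 (3 of 4, and -0.06 when scaled on the hybridization controls), with Lyve1, which macrophages also carry, at 106 and 388 and Prox1, the defining factor of that lineage, dim at 54.6 and 64.1. Oocyte markers had a median of -0.77 (7 of 7) and a summed signal of 29653 and 17080. Sohlh1, a germ cell transcription factor, read 877 and 366. The part of these cell types in the Cxcl12, Cxcr4 and Ackr4 values was not tested.

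**Figure D4:**
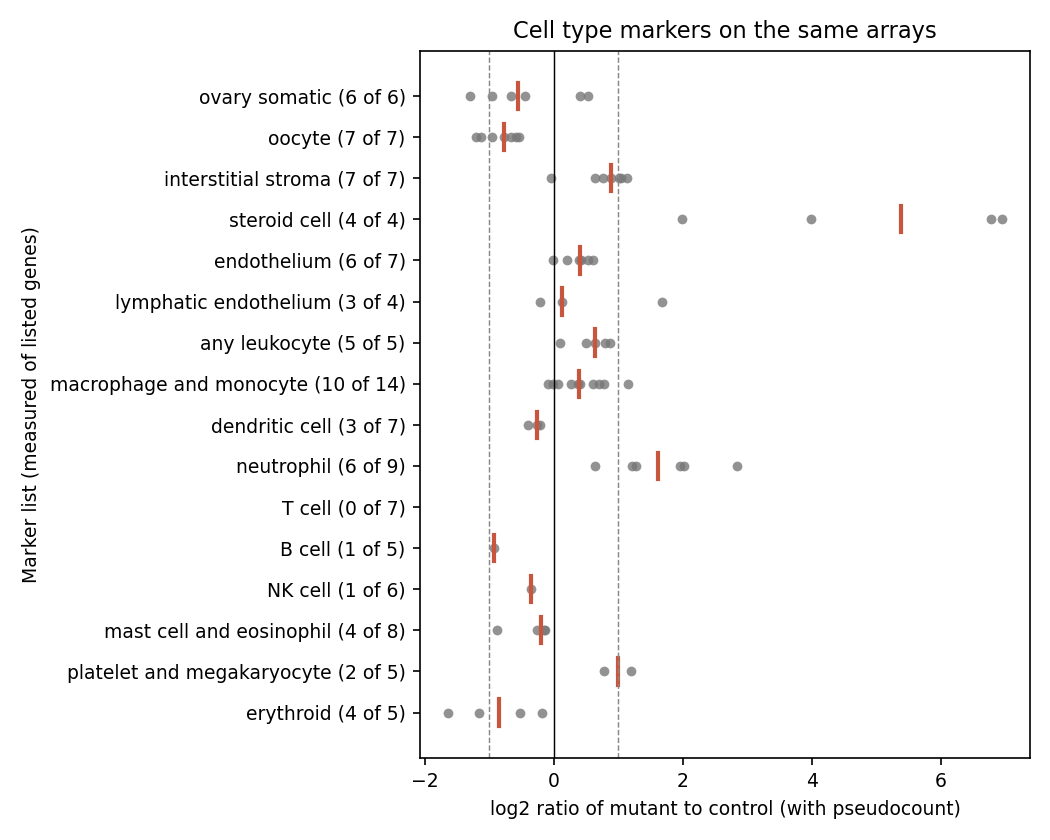
Log2 ratio of mutant to control for each measured marker gene (grey points) and the median of each list (red bar), with dashed lines at 2-fold. Numbers beside each list are measured of listed genes. The steroid cell list (median 5.39) lies farthest to the right, followed by the neutrophil (1.62), platelet and megakaryocyte (0.99) and interstitial stroma (0.90) lists, with the ovary somatic (-0.56), oocyte (-0.77) and erythroid (-0.84) lists and the single B cell gene (-0.92) to the left, and no T cell marker was measured.

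Signalling genes downstream of the receptors stayed within 2-fold, as did most of all measured probe sets. Of all measured probe sets 2.89% were called 2-fold higher and 2.04% lower, and 8.81% and 9.87% at 1.5-fold. In lists this small, 0 calls lie near those shares. All 7 listed Gi and beta-gamma subunits were measured with a median log2 ratio of 0.12 (-0.11 when scaled on the hybridization controls), and 0 passed 1.5-fold. Gnai1, a Gi alpha subunit, read 3660.5 and 5448 (log2 ratio 0.57), Gng2 599 and 825, Gnai2 2606 and 3039, and Gnb2 1273 and 1145. Of 12 receptor kinases, arrestins and RGS proteins 9 were measured, and 0 passed 1.5-fold. Rgs19, which shortens Gi signals, had a log2 ratio of 0.51, Arrb2, an arrestin that ends receptor signalling, -0.49, Grk6 0.44 and Arrb1 0.39.

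Effectors of leukocyte migration had 14 of 22 genes measured, with 4 called 1.5-fold higher, 1 called 1.5-fold lower and 0 called at 2-fold. The shares of all measured probe sets at 1.5-fold were 8.81% higher and 9.87% lower. Itga4, an integrin subunit of leukocytes and stroma, read 332 and 648 (1.95-fold higher), Coro1a, an actin-binding protein of leukocytes, 58.2 and 124 (at least 1.54-fold), and Plcb3, a phospholipase that receptors activate, 229 and 379.5 (1.66-fold). Itgb2, the shared subunit of leukocyte integrins, read 59.1 and 101 (at least 1.25-fold), and Rac2, a small GTPase of blood cells and the gene called lower, 104 and 61.8 (at least 1.29-fold lower). Of the genes that process or hold ligands 11 of 12 were measured, 2 called 1.5-fold higher and 2 called 1.5-fold lower. Mmp9 and Mmp2, proteases that can trim chemokines, read 76.7 and 161 (at least 1.99-fold higher) and 2372 and 4223 (1.78-fold). Dpp4, the peptidase that inactivates Cxcl12, read 288 in control RNA and 171 in mutant RNA (1.68-fold lower), and Sdc1, a heparan sulfate proteoglycan, 3245 and 1899 (1.71-fold lower).

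Among inflammatory inducers a single gene passed 2-fold. Of 20 listed genes 12 were measured, with a median log2 ratio of 0.13 (-0.10 when scaled on the hybridization controls). Of the 12, 1 was called 2-fold higher, where 2.89% of all measured probe sets were. That gene was Tlr4, the endotoxin receptor, at 23.9 and 83.4, where the bound on the fold is 1.03. The cytokines Tnf, Il1a, Il1b, Il6 and Ifng were dim, with Il1b at 72.7 and 43.9. Rela, an NF-kB subunit, had a log2 ratio of -0.49, Myd88, an adaptor of Toll-like receptors, 0.42, and Icam1, a leukocyte adhesion molecule, 0.42. Nfkbia, an NF-kB inhibitor and target, read 13650 and 14602 (log2 ratio 0.10). Among chemoattractant genes named otherwise, 9 of 17 were measured and 0 passed 1.5-fold, with log2 ratios of 0.47 for Cklf, 0.40 for S1pr1, 0.39 for Ccrl2 and -0.31 for Ccl27a. Of all measured probe sets 8.81% were 1.5-fold higher and 9.87% lower.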

How the data were processed

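Total RNA of ovaries from 8 mice per group was pooled and hybridised to 1 oligonucleotide array per group, per the labels' protocols. The authors deposited linear signal intensities, 1 per probe set, and the submitters' processing notes name GCOS. Its version was not given in the sources used here, nor were its settings. Trimmed by 2% at each end, the mean signal was 500.003 on both arrays. Detection calls were not used here.

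Of 45101 probe sets the platform annotation listed 35890, and 932 with several symbols were left out. All 52 member symbols matched RefSeq (GRCm38.p6) by Entrez ID. Values were used as deposited, with a pseudocount of 22.2 (25th percentile) and a signal minimum of 80.7 (50th). A gene is represented by its measured probe set of highest mean signal. Every measured member gene was named, up to 4 genes per pathway list and about 2 per marker list, by absolute log2 ratio, and other genes were named after their values were seen. The members and lists were chosen with earlier results of these data known. No test was possible with 1 array per group, and this number limits the precision. The calculation was checked on simulated data with all signals well above the minimum, so the check does not cover dim probe sets. Python 3.11.15, pandas 2.3.3 and matplotlib 3.10.9 were used. Alternatives changed the pseudocount, minimum, filter, scaling, probe sets and membership. Scaling on the hybridization controls was chosen after seeing the data.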

Additional observations from a re-analysis of the deposited data

How the results depend on the processing

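Counts of member probe sets at 2-fold depended on the signal minimum. The count that was higher was 5 of 23 as reported (2.89% of all measured probe sets), 3 of 6 with the minimum at the 75th percentile (2.36%), 3 of 15 with both signals at the minimum (1.77%), 3 of 23 with low signals raised to the minimum (2.00%), and 8 of 84 with no minimum (3.46%). The count that was lower was 0 as reported (2.04%), 5 of 84 with no minimum (3.14%), 1 of 23 with the pseudocount at the 10th percentile (3.05%), and 1 of 22 when scaled on the hybridization controls. That last scaling moved the median of all measured probe sets from -0.04 to -0.27. The members' median moved with it, from 0.32 to 0.07, so that it lay 0.37 above the median of all before and 0.34 above it after. The split of calls became 4 higher to 1 lower instead of 5 to 0 (all probe sets 1.76% and 4.54%). The median with the minimum at the 75th percentile was 1.10, over 6 probe sets.

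Over all settings run, the log2 ratio of Cxcr4 stayed between 1.15 and 1.41, that of Ackr4 between 1.15 and 1.41, and that of Cxcl12 between 0.57 and 0.93. Of 163 values of single genes under alternatives 7 moved by more than the spread between probe sets and 0 of those called at 2-fold turned direction. Ccl11 ranged from 0.74 to 2.51, Ccr10 from 0.11 to 1.39 and Ccl4 from -1.21 to -0.28. No paired analysis was possible because each group has 1 array. Dim signals limit 61 of 84 member probe sets.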

Other observations

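Chemokine genes with near-identical copies could not be read gene by gene. There were 4 probe sets annotated with several symbols, at least 1 of which fits the naming pattern of these families, and no gene is named from them. One with 9 symbols read 98.5 in control RNA and 240 in mutant RNA (2.44-fold), one with 10 symbols was dim at 6.5 and 45.6, and a pair with 5 symbols each read 532 and 405 and 269.5 and 228. Those with 5 symbols thus had lower signals in the mutant pool, and those with 9 and 10 symbols higher ones.

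Genes next to the members in the RefSeq gene table, ordered by start position, had ratios both like and unlike those of the members. Thsd7b, next to Cxcr4, read 196 in control RNA and 172 in mutant RNA (log2 ratio -0.17), and Zfp637, next to Cxcl12, 794 and 653 (-0.27). Nup54 and Art3, on either side of Cxcl10 in that order, had log2 ratios of -0.44 and 0.63. Iqca, next to Ackr3, read 3557 and 2171 (-0.71), while Ackr3 itself had -0.11. Hmgcs1, the cholesterol synthesis enzyme next to Ccl28, read 11563 and 20882.5 (0.85), against -0.22 for Ccl28.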
